A study of Homo sapiens with 6 samples.

Results

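The translation initiation and elongation factors were taken as the protein-coding genes whose GENCODE symbol begins with EIF or EEF followed by a number, with the eIF2 kinases (EIF2AK symbols) left out. The rule found 67 genes among the 60612 listed in each table, and 60 of them passed the filter of a mean of at least 1 FPKM (fragments per transcript length and library total) over the 6 libraries. RNA was sequenced from HCT116, an established human colorectal carcinoma line. Of the 6 libraries, 3 are from cells that received a negative-control lentivirus (LV-NC) and 3 from cells that received a lentivirus with the insert SNORA28, a small nucleolar RNA (LV-SNORA28). Cells were collected 72 h after infection. The comparison asked which translation factor genes differed when SNORA28 was overexpressed. Both groups carried a lentivirus, the same cell line stood behind all libraries, and no uninfected cells are among them.

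Translation starts when eIF2, loaded with GTP and the initiator tRNA, joins the small ribosomal subunit together with eIF1, eIF1A, eIF3 and eIF5. The mRNA is brought in through its cap by eIF4E, eIF4G and the helicase eIF4A, whose work is helped by eIF4B and eIF4H, and the complex scans to a start codon. Elongation then relies on eEF1A, which carries aminoacyl-tRNAs to the ribosome, on the eEF1B subunits that recharge eEF1A with GTP, and on eEF2, which moves the ribosome along. Several of these genes host small nucleolar RNAs in their introns, and many mRNAs of the translation machinery begin with a C followed by a run of pyrimidines, the 5′ terminal oligopyrimidine tract.

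SNORA28 itself lies in a translation factor gene. It is placed in intron 6 of EIF5 on the plus strand, at chr14:103337849-103337974 of GRCh38, and is 126 nt long with a GC content of 41.3%. The sequence, read from the genome, is printed because it is the RNA that was overexpressed, and the capitals mark the ACA box that stands before the last 2 bases.

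SNORA28: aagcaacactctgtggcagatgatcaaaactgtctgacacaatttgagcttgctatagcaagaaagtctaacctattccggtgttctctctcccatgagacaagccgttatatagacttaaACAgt

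The first bases of the transcripts were then compared, because they show which members carry a pyrimidine tract. RefSeq promoter entries on GRCh38.p14 were matched to 54 of the 67 members. Each line gives 10 bases before the annotated start and the first 20 bases from it on the gene's own strand, and the capitals mark the C at the start with the unbroken run of C and T that follows. The first 4 genes with a run are the elongation factors eEF1A1 and eEF2, the helicase cofactor eIF4B and eIF2A, and EIF2S3 encodes the gamma subunit of eIF2. EIF5, EIF1 and EIF2S1 have no C at the annotated start, so their lines hold no capitals.

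EEF1A1: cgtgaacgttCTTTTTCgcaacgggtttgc

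EEF2: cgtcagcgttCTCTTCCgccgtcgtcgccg

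EIF4B: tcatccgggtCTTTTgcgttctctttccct

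EIF2A: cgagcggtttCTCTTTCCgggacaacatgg

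EIF2S3: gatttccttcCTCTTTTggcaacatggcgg

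EIF5: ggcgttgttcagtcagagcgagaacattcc

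EIF1: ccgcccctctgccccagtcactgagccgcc

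EIF2S1: gaggttccgcatgcgcggtggagtgagcga

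These lie at chr6:73521013-73521042 on the minus strand for EEF1A1, chr19:3985444-3985473 on the minus strand for EEF2, chr12:53006446-53006475 on the plus strand for EIF4B and chr3:150546777-150546806 on the plus strand for EIF2A. The EIF2S3 line lies at chrX:24054946-24054975, that of EIF5 at chr14:103334227-103334256, that of EIF1 at chr17:41688875-41688904 and that of EIF2S1 at chr14:67360318-67360347, all on the plus strand. A C at the start followed by at least 4 bases that are C or T was found in 12 of the 54 members (22.2%), against 4.04% of all 27305 promoter entries and 5.74% of the entries of genes tested. Only the annotated start on the gene's own strand was searched, and the start used in these cells was not measured.

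The levels of the 60 genes spanned more than 3 orders of magnitude. FPKM is scaled to transcript length, so levels of different genes can be set side by side. This is less safe for members with pseudogene copies, on which part of their fragments may be placed. The mean over all 6 libraries ran from 1.05 FPKM for EIF2S3B to 2880 FPKM for EEF1A1, and EEF1A1 ranked between 14 and 16 among all genes tested in every library. EEF2 ranked between 25 and 28. The eIF3 subunits, which belong to 1 complex, ran from 14.7 FPKM for EIF3F to 156 FPKM for EIF3I. The 2 pseudogene copies of EIF3F summed to a mean of 22.63 FPKM in LV-NC and 19.16 FPKM in LV-SNORA28, so its place as the lowest is uncertain. The eIF2B subunits stayed between 4.02 FPKM for EIF2B3 and 11.5 FPKM for EIF2B1. The genes below the filter were EIF1AY, EIF4E1B, EIF4E3, EIF4EBP3, EEF1AKMT3 and the read-through genes EEF1AKMT4-ECE2 and EEF1E1-BLOC1S5.

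**Figure D1:**
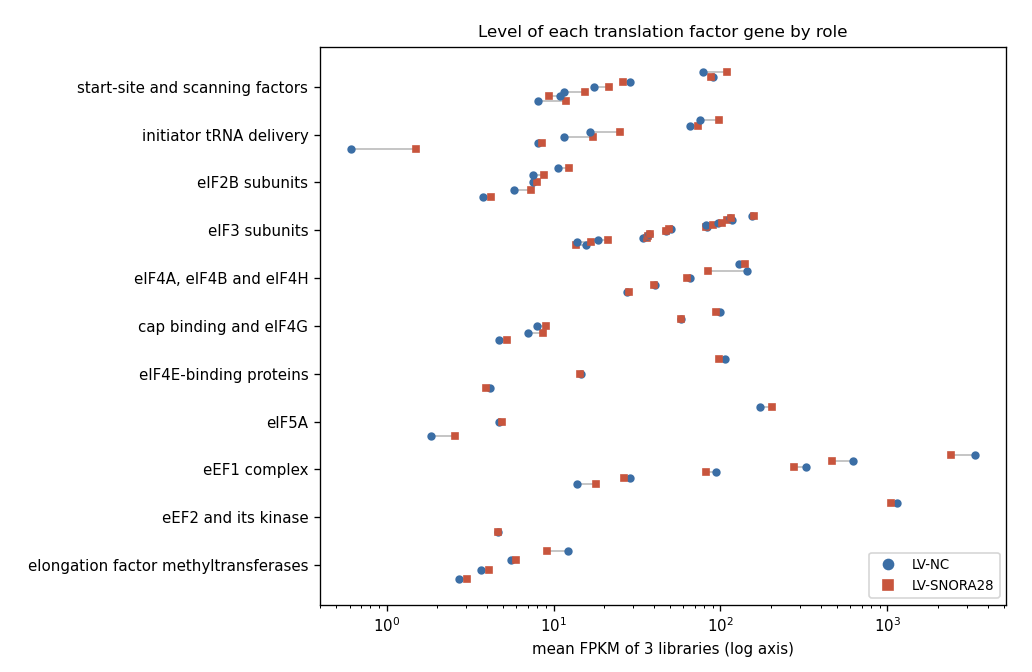
Mean FPKM of the 3 LV-NC libraries (circles) and the 3 LV-SNORA28 libraries (squares) for each of the 60 genes, grouped by role, on a log axis. EEF1A1, at the far right of the eEF1 complex, and EIF4B, the widest pair of its group, lie to the left in LV-SNORA28, and the markers of most eIF3 subunits lie almost on top of each other.

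Of the 60 genes tested, 4 had risen and 2 had fallen in LV-SNORA28 by the test, an adjusted p below 0.05 (limma on log2(FPKM + 1), Benjamini-Hochberg over 12076 genes). That is 10% of them, against 8.91% of all genes tested, of which 6.81% were higher and 2.1% lower. The share of translation factors that passed was therefore close to the background, and so were the other counts. The groups did not overlap for 20 of the 60 genes (33.3%), against 35.1% of all genes. An unadjusted p below 0.05 was reached by 17 genes (28.3%), against 28.0%. The median log2 fold change was 0.06, against 0.09 over all genes, and 63.3% of the members lay above 0, against 66.7%. Under the rule of an unadjusted p below 0.05 and more than 1.5-fold between the groups, only EIF4B passed on the fitted log2(FPKM + 1) scale, or 1.67% against 3.79%. By the fold of the group means, EIF2S1 (1.502-fold) would pass as well. The counts of 4 and 2 moved when single libraries were left out, as did those of all genes. Without LV-SNORA28 replicate 2 there was 1 higher gene (1.67%, against 1.58% of all genes in that fit). Without LV-SNORA28 replicate 3 there were 2 (3.33%, against 1.66%). When either of these or LV-NC replicate 3 was left out, 1 gene was lower, against 0.729%, 0.745% and 1.0% of all genes. Rescaling to TPM gave 10 higher genes of 63 tested (15.9%), against 10.7% of all genes in that fit. At 1.5-fold 3 genes passed when LV-NC replicate 1, LV-NC replicate 3 or LV-SNORA28 replicate 1 was left out. The 95% interval of the fold change stayed within 1.5-fold in both directions for 47 of the 60 genes.

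**Figure D2:**
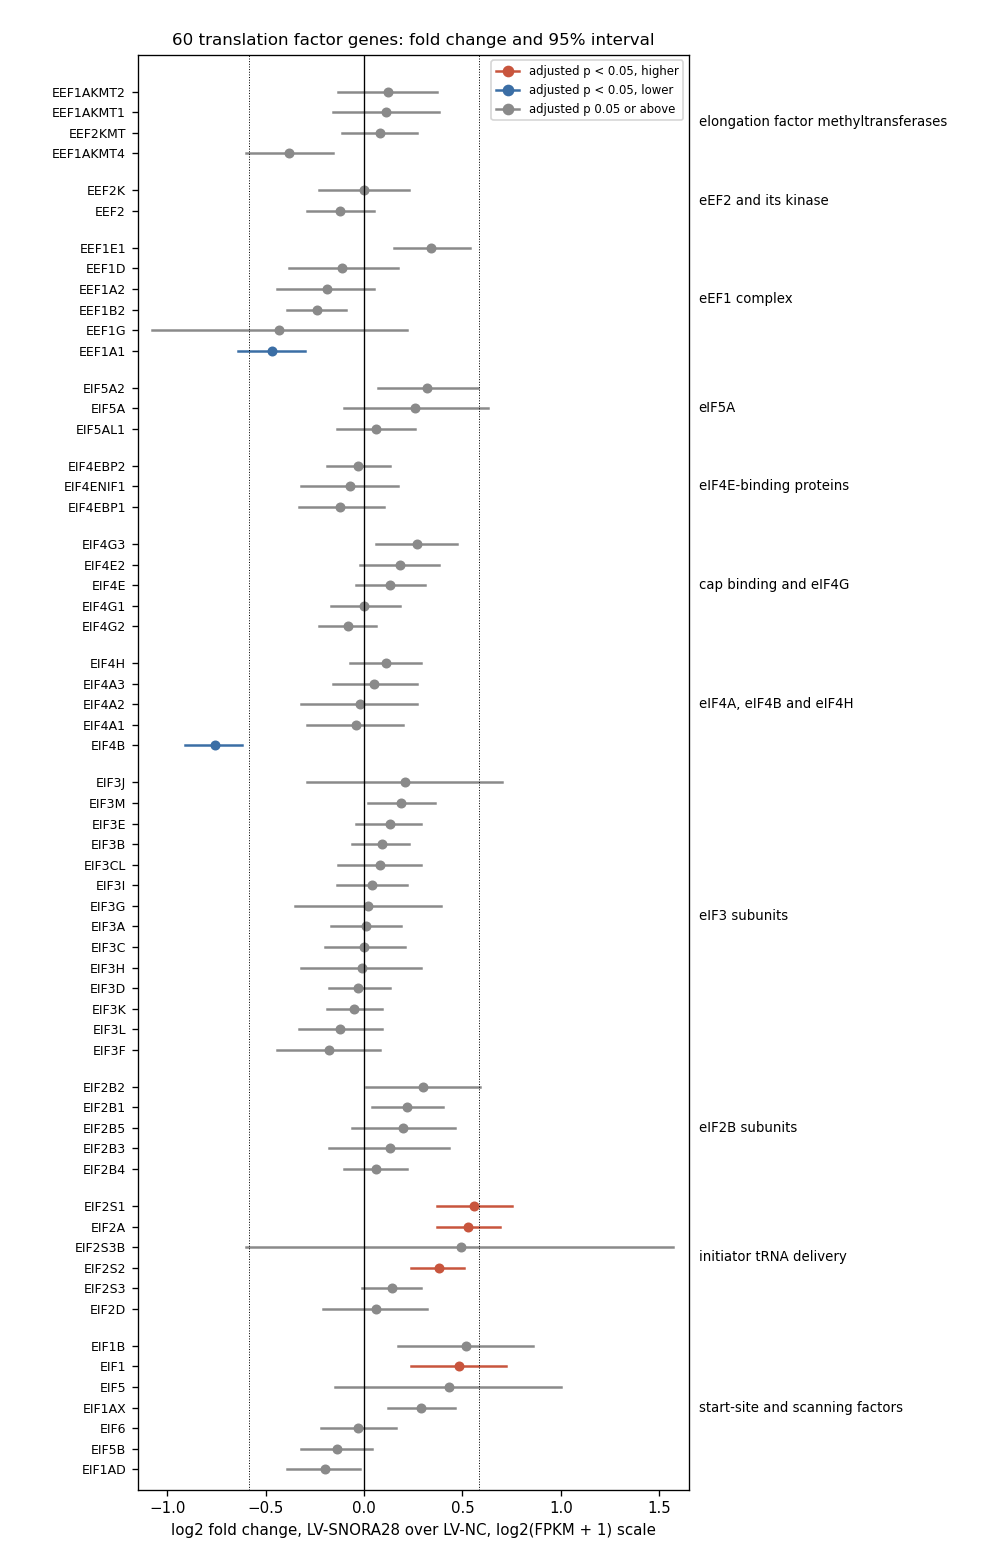
Log2 fold change (point) with its 95% interval (line) for the 60 genes tested, grouped by role, on the log2(FPKM + 1) scale. Solid and dotted vertical lines mark no change and 1.5-fold. The 4 red genes are EIF2S1, EIF2A, EIF2S2 and EIF1, and the 2 blue genes are EIF4B and EEF1A1.

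The libraries themselves differed in respects that touch every FPKM value. The FPKM sum over all genes was 334707 to 374676 in LV-NC and 306048 to 320362 in LV-SNORA28. Without the mitochondrially encoded genes, the nuclear sum was 191035 to 195885 in LV-NC and 196223 to 199376 in LV-SNORA28. The share of the FPKM sum on mitochondrially encoded genes was 42.7% to 47.72% in LV-NC and 35.88% to 38.26% in LV-SNORA28. Scaling to the nuclear sum in place of all genes left the same count of 4 higher genes and gave 3 lower genes, the added one being EEF1AKMT4. Of the epithelial markers EPCAM, KRT8, KRT18, KRT19, CDH1 and VIL1, 5 were expressed and VIL1 was at most 0.04 FPKM. Their sum was 758.42 to 845.9 FPKM in LV-NC and 780.08 to 826.78 FPKM in LV-SNORA28. Of 9 markers of immune, endothelial and stromal cells, 7 had a mean below 0.1 FPKM, with COL1A2 and DCN at 0, and CD68 and COL1A1 reached 4.12 and 4.46 FPKM. The sum of these 9 was 4.3 to 6.63 FPKM in LV-NC and 6.48 to 7.39 FPKM in LV-SNORA28, and its part in the results was not tested. In bulk RNA, fewer cells that express a gene and less RNA per cell cannot be told apart.

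EIF5 encodes the factor that triggers GTP hydrolysis on eIF2 when the start codon is found (ENSG00000100664; GRCh38 chromosome 14, 103333544 to 103345025). Its level was 16.88, 8.56 and 9.48 FPKM in LV-NC replicates 1 to 3 and 13.8, 17.86 and 14.59 FPKM in LV-SNORA28 replicates 1 to 3. LV-NC replicate 1 lay far above the other LV-NC libraries and above LV-SNORA28 replicates 1 and 3, so the groups overlapped. The log2 fold change was 0.43 (SE 0.24) with an interval from -0.15 to 1, and limma gave an adjusted p of 0.300. Without LV-NC replicate 1 it was 0.71 with an adjusted p of 0.0417, so this library decides the call. The SNORA28 gene had values of 0.92, 0 and 0.64 FPKM in the control libraries, then 15.01, 13.66 and 15.2 FPKM with LV-SNORA28. The insert and the intronic copy share this sequence, and the values do not tell them apart. LV-NC replicate 1 had EIF5 in the range of the LV-SNORA28 libraries at a SNORA28 value of 0.92 FPKM.

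Translation factor genes hold other small nucleolar RNAs as well. GENCODE places 19 of them in introns of 9 members, namely 5 in EIF4A2, 3 each in EIF4A1 and EEF1B2, 2 each in EIF3A and EIF1AX and 1 each in EEF2, EIF4G1, EIF4G2 and EIF5. In the fit without a filter SNORA28 passed (log2 fold change 3.41, limma adjusted p of 0.0101) and the other 18 did not. SNORA67 of EIF4A1 had 16.85, 23.38 and 24.23 FPKM in LV-NC and 11.01, 27.28 and 23.87 FPKM in LV-SNORA28. SNORA4 of EIF4A2 had 16.96, 10.77 and 14.72 FPKM, then 17.35, 13.85 and 14.34 FPKM. The values of both overlapped between the groups, and poly(A) selection, which these libraries used, recovers such RNAs poorly.

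The role list of start-site and scanning factors also holds EIF1AD and EIF6, whose part in scanning was not examined. Of its 8 genes, 7 were tested. By limma 1 rose and none fell, against 6.81% and 2.1% of all genes. An unadjusted p below 0.05 was reached by 4 of them, against 28.0%. EIF1, which keeps the scanning complex open until the start codon is reached (ENSG00000173812; chromosome 17, 41688885 to 41692668), had 67.08, 85.47 and 82.91 FPKM in LV-NC. It had 107.97, 114.94 and 105.28 FPKM in LV-SNORA28. Every LV-SNORA28 library lay above every LV-NC library, although LV-NC replicate 1 stood apart at the low end. EIF1 rose 1.39-fold, from 78.5 ± 9.96 to 109 ± 4.99 FPKM (SD, n = 3), a log2 fold change of 0.48 (SE 0.10) at an adjusted p of 0.0373 in limma. The call was lost in 5 of the 6 fits that leave out 1 library, where the adjusted p ran up to 0.121, and was kept only without LV-NC replicate 1. Its close relative EIF1B and the scanning factor EIF1AX, named here after their values were seen, had log2 fold changes of 0.52 and 0.29 with adjusted p-values of 0.0735 and 0.0550 and also showed no overlap. EIF1AD, EIF5B and EIF6 lay between -0.20 and -0.03 and did not pass. Of the 4 genes at an unadjusted p below 0.05, EIF1AD was the one that was lower in LV-SNORA28, also without overlap (limma unadjusted p of 0.0339).

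The genes for initiator tRNA delivery gave 3 of the 4 increases. All 6 genes of this group were tested, 3 rose, against 6.81% of all genes, and all 6 had a log2 fold change above 0, against 66.7% of all genes. The median was 0.43, against 0.09 over all genes, and with 6 genes no test of the group was made. After quantile normalization 5 of the 6 lay above 0, with a median of 0.36, and the same number of 3 passed.

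EIF2S1 encodes the alpha subunit of eIF2, whose phosphorylation by stress kinases lowers initiation (ENSG00000134001; chromosome 14, 67360328 to 67386516). It had 15.67, 16.42 and 17.59 FPKM in LV-NC and 22.92, 24.71 and 27.01 FPKM in LV-SNORA28. The groups were well apart, with the lowest LV-SNORA28 library above the highest LV-NC library. EIF2S1 rose 1.5-fold, from 16.6 ± 0.968 to 24.9 ± 2.05 FPKM (SD, n = 3), a log2 fold change of 0.56 (SE 0.08) at an adjusted p of 0.0133 in limma. It missed the threshold (adjusted p 0.0571) without LV-SNORA28 replicate 2.

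EIF2S2 encodes the beta subunit (ENSG00000125977; chromosome 20, 34088309 to 34112243). It had 72.57, 77.6 and 76.4 FPKM in LV-NC and 94.62, 100.71 and 99.98 FPKM in LV-SNORA28, again with no overlap. EIF2S2 rose 1.3-fold, a log2 fold change of 0.38 (SE 0.06) at an adjusted p of 0.0155 in limma. It missed the threshold without LV-SNORA28 replicate 2 (adjusted p 0.0693) or replicate 3 (adjusted p 0.0669).

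EIF2S3, the gene of the gamma subunit that binds GTP and the tRNA, was the one eIF2 subunit that did not pass and was named after its values were seen. It had 64.17, 69.88 and 63.93 FPKM in LV-NC and 70.12, 76.12 and 72.66 FPKM in LV-SNORA28. The groups were next to each other without overlap, at a log2 fold change of 0.14 (SE 0.06; 95% interval -0.01 to 0.29) and a limma adjusted p of 0.200. The ratios of these RNAs were also computed within each library, without a test of the difference between subunits. EIF2S1 had 25.1 ± 2.1 FPKM per 100 FPKM of EIF2S3 in LV-NC and 34.1 ± 2.66 in LV-SNORA28 (SD, n = 3), and EIF2S2 had 115 ± 4.41 and 135 ± 2.65. Neither ratio overlapped between the groups, and an exact two-sided permutation test of 3 against 3 libraries cannot go below 0.1. EIF2S3B, a close copy of EIF2S3, was near the filter with 0.24 to 1.25 FPKM in LV-NC and 0.52 to 3.4 FPKM in LV-SNORA28, and how the authors' counting shares reads between the copies is not known here.

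EIF2A encodes a separate protein that can bring the initiator tRNA to the ribosome and is not a subunit of eIF2 (ENSG00000144895; chromosome 3, 150546678 to 150586016). It had 12.44, 11.36 and 10.92 FPKM in LV-NC and 17.54, 16.87 and 17.11 FPKM in LV-SNORA28. The LV-SNORA28 libraries lay close together and above all LV-NC libraries. EIF2A rose 1.48-fold, a log2 fold change of 0.53 (SE 0.07) at an adjusted p of 0.00986 in limma. It passed in all 16 alternative fits, with log2 fold changes from 0.45 to 0.70. EIF2D, another factor that can deliver a tRNA, had a log2 fold change of 0.06.

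**Figure D3:**
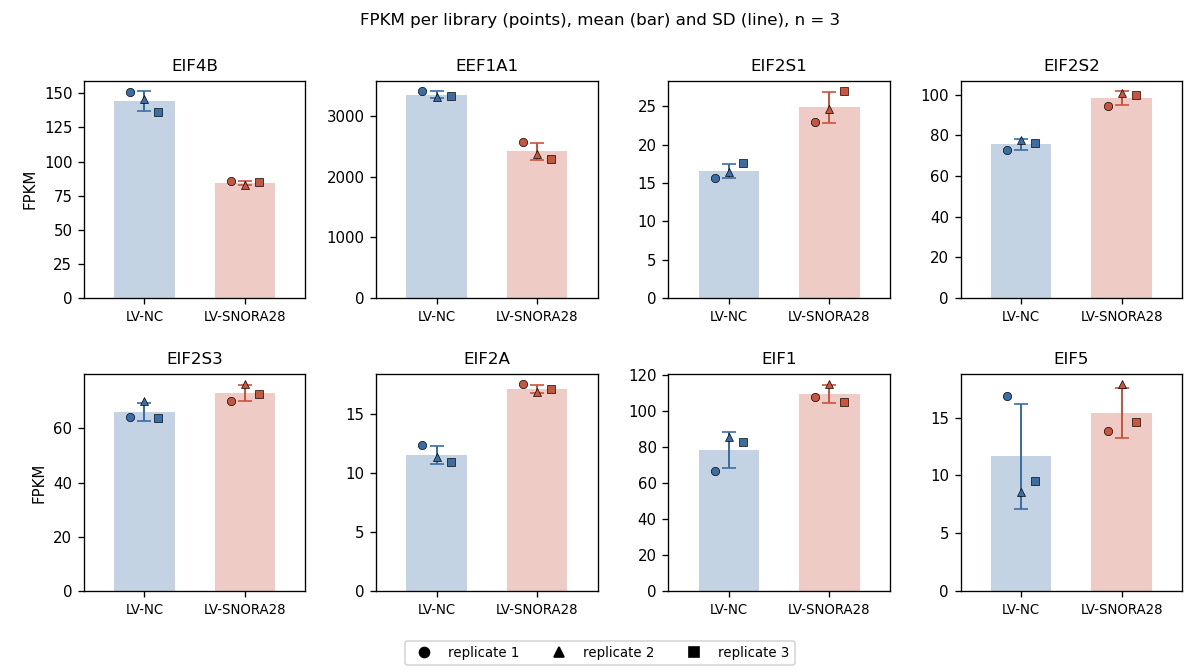
FPKM of 8 genes in each library (circle, triangle and square for replicates 1, 2 and 3), with the group mean as a bar from 0 and the SD as a line (n = 3). The groups are apart for EIF4B, EEF1A1, EIF2S1, EIF2S2, EIF2A and EIF1, lie next to each other for EIF2S3, and overlap for EIF5 because of LV-NC replicate 1 at 16.88 FPKM.

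The eIF2B subunits form the exchange factor that recharges eIF2 with GTP. By limma none of the 5 genes passed, with 2 at an unadjusted p below 0.05, against 28.0% of all genes. All 5 log2 fold changes were above 0 (4 of 5 after quantile normalization), against 66.7% of all genes. They ranged from 0.06 to 0.30 with a median of 0.20, against 0.09 over all genes. EIF2B1, the most abundant of them, had 9.59, 10.91 and 11.19 FPKM in LV-NC and 12.67, 11.92 and 12.66 FPKM in LV-SNORA28. Its groups did not overlap, and its log2 fold change of 0.22 (SE 0.08) had a limma adjusted p of 0.122.

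The eIF3 subunits form the scaffold that binds the small ribosomal subunit. By limma none of the 14 genes passed, and 1 had an unadjusted p below 0.05, against 28.0% of all genes. Their log2 fold changes ran from -0.18 to 0.21 with a median of 0.02, and for 13 of the 14 the 95% interval stayed within 1.5-fold. EIF3J, the loosely attached subunit, was the other one, with 13.62, 14.26 and 13.9 FPKM in LV-NC and a wide spread of 11.43, 16.88 and 21.91 FPKM in LV-SNORA28. The most abundant subunit, EIF3I, had 141.01, 164.55 and 155.81 FPKM in LV-NC and 163.51, 160.37 and 150.68 FPKM in LV-SNORA28, which overlapped (log2 fold change 0.04, limma adjusted p of 0.755). EIF3M alone had groups that did not overlap, against 35.1% of all genes, with a limma adjusted p of 0.145. EIF3C and EIF3CL are near-identical, and how reads were shared between them is not known here, so they were also summed, to 134 ± 10.7 FPKM in LV-NC and 140 ± 9.33 FPKM in LV-SNORA28 (SD, n = 3).

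In the list of eIF4A, eIF4B and eIF4H genes, 1 of 5 passed, and it fell, against 2.1% of all genes tested. EIF4B, the cofactor that raises the activity of eIF4A (ENSG00000063046; chromosome 12, 53006282 to 53042215), had 150.97, 145.62 and 136.46 FPKM in LV-NC and 85.69, 83.01 and 84.75 FPKM in LV-SNORA28. The LV-SNORA28 libraries were almost equal and far below all LV-NC libraries. EIF4B fell by 41.5%, from 144 ± 7.34 to 84.5 ± 1.36 FPKM (SD, n = 3), a log2 fold change of -0.76 (SE 0.06) at an adjusted p of 0.00276 in limma. This was the largest fold change among the 60 genes on the log2(FPKM + 1) scale, though not with a pseudocount of 0.1, where the low gene EIF2S3B had 0.92 (adjusted p 0.511) and EIF4B -0.77. EIF4B passed in all 16 alternative fits, with values from -0.80 to -0.62. In rank among all genes tested, EIF4B went from between 175 and 218 in the LV-NC libraries to between 338 and 372 in the LV-SNORA28 libraries.

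The related cofactor EIF4H (chromosome 7, 74174231 to 74197122) had 119.05, 130.17 and 139.79 FPKM in LV-NC and 134.71, 145.52 and 139.01 FPKM in LV-SNORA28. These overlapped, at a log2 fold change of 0.11 (limma adjusted p of 0.388). Per 100 FPKM of EIF4H there were 112 ± 14.6 FPKM of EIF4B in LV-NC and 60.5 ± 3.30 in LV-SNORA28 (SD, n = 3). The helicase genes EIF4A1, EIF4A2 and EIF4A3 had log2 fold changes of -0.04, -0.02 and 0.05, all with intervals inside 1.5-fold. The value of EIF4A1 rests on how reads are shared with the overlapping read-through gene SENP3-EIF4A1, which was between 29.8 and 88.1 FPKM in LV-NC and between 34.9 and 76.0 FPKM in LV-SNORA28. Summed, they gave 117 ± 34.5 and 116 ± 15.3 FPKM, and the log2 fold change was 0.0275.

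Cap binding and the eIF4G scaffold showed no call by limma among 5 genes tested of 7, with 1 at an unadjusted p below 0.05, against 28.0% of all genes. EIF4G2, which lacks the part that binds eIF4E, had 100.42, 105.77 and 95.15 FPKM in LV-NC and 93.15, 93.68 and 97.13 FPKM in LV-SNORA28, with overlap and a log2 fold change of -0.08 (limma adjusted p of 0.414). EIF4E, the cap-binding protein itself, had 4.79, 4.71 and 4.6 FPKM and then 4.91, 5.14 and 5.7 FPKM. The 2 groups of values did not overlap, and the log2 fold change of 0.13 had a limma adjusted p of 0.296. The 5 pseudogene copies of EIF4E summed to a mean of 22.68 FPKM in LV-NC and 25.12 FPKM in LV-SNORA28. How reads were shared with them is not known here, so the level of EIF4E itself is uncertain. EIF4G3 had 0.27 and an adjusted p of 0.1. The 3 tested eIF4E-binding proteins, which hold eIF4E away from eIF4G, lay between -0.12 and -0.03, and all 3 lay above 0 after rescaling to TPM. The most abundant of them, EIF4EBP1, had 94.76, 114.76 and 110.26 FPKM in LV-NC and 91.57, 101.79 and 100.69 FPKM in LV-SNORA28, with overlap and a limma adjusted p of 0.441.

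The 3 genes for eIF5A, the factor that helps the ribosome through difficult peptide bonds and carries the modified amino acid hypusine, did not pass by limma. Of these 3, 1 had an unadjusted p below 0.05, against 28.0% of all genes. EIF5A had 131.17, 181.14 and 202.47 FPKM in LV-NC and 203.58, 205.16 and 199.77 FPKM in LV-SNORA28. The LV-NC values were widely spread, with the highest among the tight LV-SNORA28 values, and the log2 fold change of 0.26 (SE 0.15) had a limma adjusted p of 0.315. EIF5A2, a paralog at 1.64 to 2.13 FPKM in LV-NC and 2.21 to 2.85 FPKM in LV-SNORA28, had 0.32 with an adjusted p of 0.111.

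In the eEF1 complex 5 of 6 genes had a log2 fold change below 0, with a median of -0.22, and 1 of them passed. Over all genes tested 66.7% lay above 0, the median was 0.09 and 2.1% were called lower. With 6 genes no test of the group was made. The count of 5 was the same after quantile normalization and after nuclear scaling, and 4 of the 6 lay below 0 after rescaling to TPM, which brings every library to the same sum and moved the median of all genes to 0.2281. EEF1A1, the carrier of aminoacyl-tRNAs (ENSG00000156508; chromosome 6, 73489308 to 73525587), had 3412.59, 3316.43 and 3321.89 FPKM in LV-NC. It had 2577.09, 2380.43 and 2298.03 FPKM in LV-SNORA28. All LV-SNORA28 libraries were lower than all LV-NC libraries, by much more than the spread within either group. EEF1A1 fell by 27.8%, a log2 fold change of -0.47 (SE 0.07) at an adjusted p of 0.0150 in limma. With the nuclear sum as the scale it was -0.50 (adjusted p 0.0139).

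The call of EEF1A1 depended on the scaling. Its rank hardly moved, from between 14 and 16 in LV-NC to between 15 and 16 in LV-SNORA28, so quantile normalization, which gives each rank the same value in every library, left a log2 fold change of -0.06 (adjusted p 0.563). The adjusted p was also above 0.05 without a filter on low genes (0.167) and without LV-NC replicate 3 (0.0536), LV-SNORA28 replicate 2 (0.0729) or LV-SNORA28 replicate 3 (0.0656). EEF1A1 also made up a large part of all translation factor RNA. The 67 genes summed to 7744, 7870.9 and 7946 FPKM in LV-NC and to 7005.5, 6670.2 and 6366.6 FPKM in LV-SNORA28, with no overlap. The FPKM sum over all genes was also lower in LV-SNORA28. As a share of the nuclear sum, the 67 genes made up 4.05% ± 0.0344 in LV-NC and 3.38% ± 0.161 in LV-SNORA28 (SD, n = 3). Without EEF1A1 the sums were 4331.4, 4554.5 and 4624.2 FPKM and then 4428.4, 4289.8 and 4068.6 FPKM, which overlapped. EEF1A1 made up 42.7% ± 1.22 of the sum in LV-NC and 36.2% ± 0.556 in LV-SNORA28 (SD, n = 3).

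EEF1A1 has 49 annotated pseudogene copies in these tables, by symbol, and fragments that match several copies may be placed on any of them. The copies summed to 1523.6, 1318.2 and 1341.0 FPKM in LV-NC and to 813, 835 and 773 FPKM in LV-SNORA28, so that the groups were far apart. All 8 copies that passed the filter were lower at a limma adjusted p below 0.05, against 2.1% of all genes. Their median log2 fold change was -1.21, against 0.09 over all genes. Because fragments may be shared among the copies, these 8 are not separate results. Per 100 FPKM of EEF1A1 the copies had 41.6 ± 2.67 FPKM in LV-NC and 33.4 ± 1.78 in LV-SNORA28 (SD, n = 3). With the copies added to EEF1A1, its log2 fold change was -0.56 (limma adjusted p of 0.0105), and that of EIF4B with its 9 copies added was -0.68. FPKM divides by the length of each copy, so such a sum is not a fragment count.

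**Figure D4:**
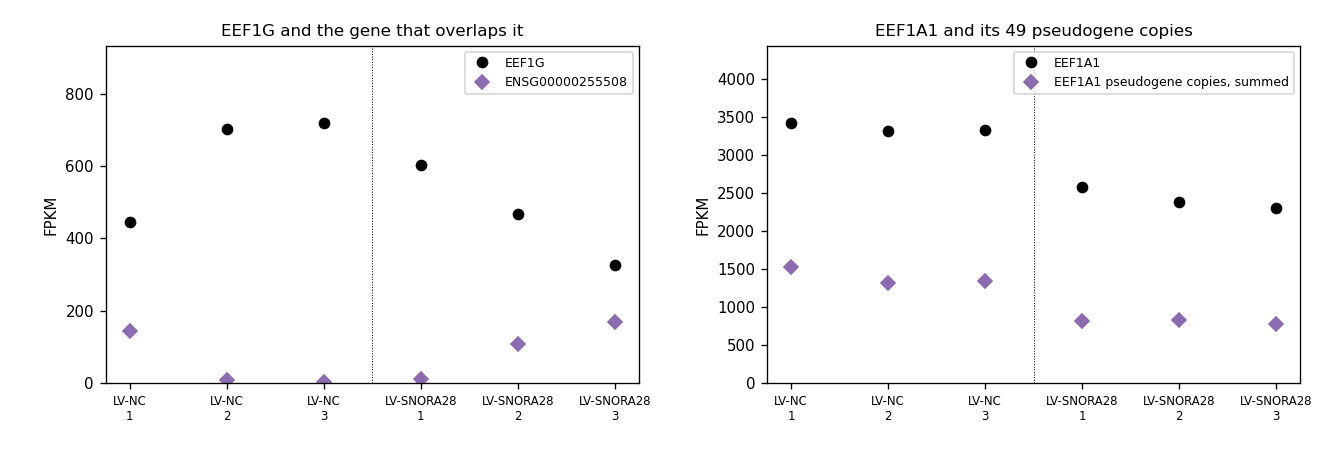
FPKM per library of EEF1G with the gene ENSG00000255508 that overlaps it (left), and of EEF1A1 with the sum of its 49 pseudogene copies (right). On the left the overlapping gene is high where EEF1G is low, in LV-NC replicate 1 and LV-SNORA28 replicates 2 and 3. On the right both are lower in every LV-SNORA28 library.

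The other eEF1 genes did not pass, and all of them were named after their values were seen. EEF1A2 and EEF1D had log2 fold changes of -0.19 and -0.11, and their groups overlapped. EEF1G, a structural subunit of eEF1B, had 445.89, 702.77 and 717.4 FPKM in LV-NC and 603.83, 466.57 and 325.68 FPKM in LV-SNORA28, a spread as wide as any difference between the groups (log2 fold change -0.43, SE 0.27, limma adjusted p of 0.351). The protein-coding gene ENSG00000255508 overlaps EEF1G and had 143.96, 8.85 and 3.54 FPKM and then 9.91, 106.88 and 170.31 FPKM. It was thus high in the libraries in which EEF1G was low. Summed, the pair gave 590, 712 and 721 FPKM in LV-NC and 614, 573 and 496 FPKM in LV-SNORA28, which still overlapped. EEF1B2, the exchange subunit, had 345.95, 313.96 and 317.26 FPKM in LV-NC and 276.35, 282.88 and 268.86 FPKM in LV-SNORA28. These did not overlap, and the log2 fold change of -0.24 had an adjusted p of 0.0633. EEF1E1, which encodes a part of the multi-tRNA synthetase complex, was the one gene of the group above 0, at 0.34 with an adjusted p of 0.0517.

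EEF2, the translocation factor (ENSG00000167658; chromosome 19, 3976056 to 3985463), had 1213.12, 1083.28 and 1114.74 FPKM in LV-NC and 1093.97, 1023.63 and 1020.09 FPKM in LV-SNORA28. The groups overlapped through LV-NC replicate 2 and LV-SNORA28 replicate 1. The log2 fold change was -0.12 (SE 0.07; 95% interval -0.29 to 0.05) with a limma adjusted p of 0.317, and it lay above 0 after quantile normalization and after rescaling to TPM. EEF2K, the kinase that phosphorylates and inactivates eEF2, had 4.67 FPKM in both groups. Among the methyltransferases that modify elongation factors, EEF1AKMT4 had 10.75, 12.85 and 13.01 FPKM in LV-NC and 9.19, 9.63 and 8.48 FPKM in LV-SNORA28. All LV-SNORA28 libraries were below all LV-NC libraries, and the log2 fold change of -0.38 (SE 0.09) had a limma adjusted p of 0.0513, just above the threshold. The other 3 tested methyltransferase genes lay between 0.08 and 0.12.

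The fold changes were also set beside the pyrimidine tract, as a description with no test. Of the 12 members with the run, all tested, 7 (58.3%) had a log2 fold change below 0 and the median was -0.03. Of the 36 tested members whose entry lacks it, 10 (27.8%) lay below 0 and the median was 0.10. Over all genes tested 66.7% lay above 0, with a median of 0.09. Of the 7, EIF3D, EIF3K and EIF4A2 lay close to 0, at -0.03, -0.05 and -0.02. Such signs moved with the scaling. After rescaling to TPM, EEF2 and 13 of the 14 eIF3 subunits lay above 0, and after quantile normalization 9 of the 14 lay below 0. The split by the run was not repeated under other scalings. The 2 genes that fell, EIF4B and EEF1A1, both carry the run, as the printed starts show, and so does EIF2A, which rose. EEF2, with a run of the same length as EEF1A1, had a log2 fold change of -0.12.

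The factors work with kinases, phosphatases, release factors and poly(A)-binding proteins, of which 37 were listed. Of the 36 tested, 6 rose and none fell (16.7%, against 6.81% of all genes tested that were higher). An unadjusted p below 0.05 was reached by 11 of the 36, against 28.0% of all genes. The list was chosen with earlier results of these data known, so these shares are a description and were not tested. PAIP1, which binds the poly(A)-binding protein and stimulates translation, had 8.09, 7.78 and 7.8 FPKM in LV-NC and 19.07, 24.39 and 21.36 FPKM in LV-SNORA28. Its LV-SNORA28 values were all more than any LV-NC value, and it rose 2.74-fold (log2 fold change 1.34, SE 0.09, limma adjusted p of 0.00240). PAIP1 passed in all 14 alternative fits, with values from 1.25 to 1.55. PPP1R15B and PPP1R15A, which bring a phosphatase to the alpha subunit of eIF2, rose with log2 fold changes of 0.77 and 0.37 (adjusted p 0.0151 and 0.0269). PPP1R15B had 15.25, 11.33 and 12.97 FPKM in LV-NC and 22.07, 21.87 and 25.08 FPKM in LV-SNORA28, so that, as for EIF2S1, the groups did not overlap. The others that rose were MTOR, the kinase upstream of the eIF4E-binding proteins (0.57, adjusted p 0.0308), PAIP2, an inhibitor of the poly(A)-binding protein (0.32, adjusted p 0.0403), and PDCD4, an inhibitor of eIF4A (0.40, adjusted p 0.0483). Of the 14 alternative fits, PPP1R15B passed in 11, MTOR in 8, PPP1R15A in 7, PDCD4 in 4 and PAIP2 in 3. Leaving out 1 library at a time gave between 1 and 3 calls among the 36 genes.

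**Figure D5:**
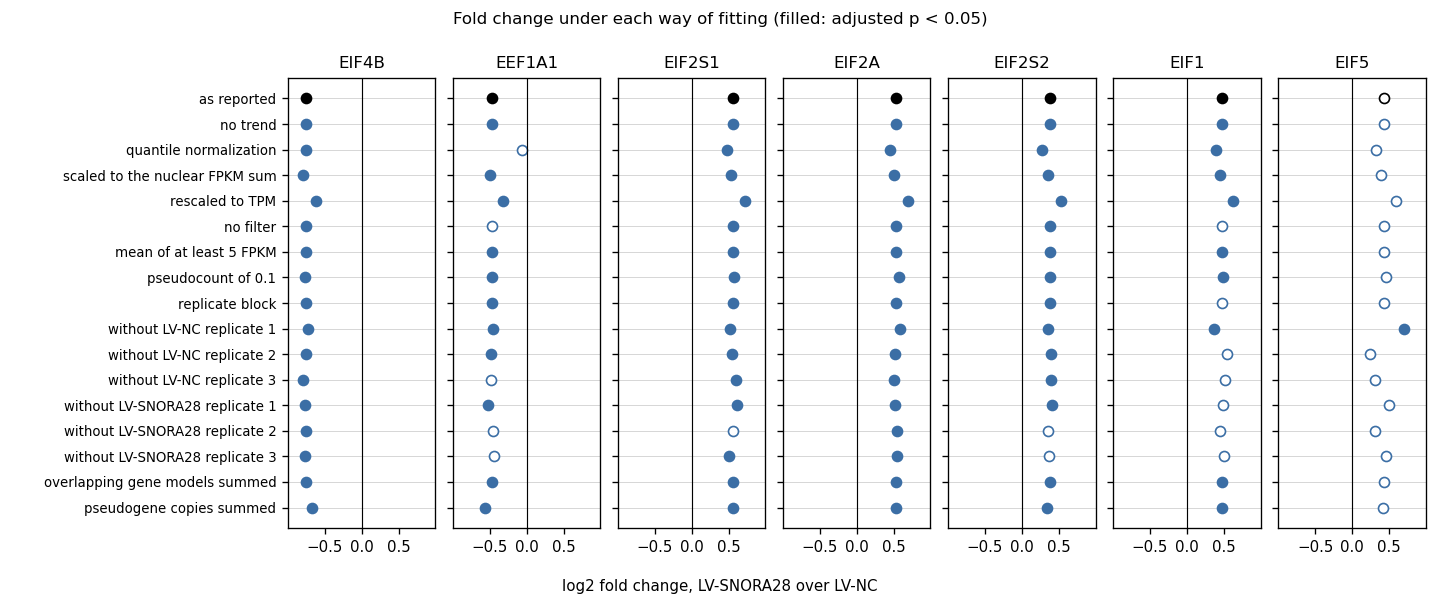
Log2 fold change of 7 genes (columns) under each way of fitting (rows), where a filled point has an adjusted p below 0.05. EIF4B and EIF2A are filled in all rows, EEF1A1 lies near 0 after quantile normalization, and EIF5 is filled only without LV-NC replicate 1.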

How the data were processed

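Poly(A)-selected, stranded paired-end RNA-seq of HCT116 was analysed in 6 libraries (3 LV-NC, 3 LV-SNORA28), grouped by their titles. The authors deposited 1 table of FPKM values per library. The submitters' processing notes name hg38, cutadapt 1.9, HISAT2 2.2.1, StringTie 2.1.6, DESeq2 and edgeR without their roles, and the annotation release, filters and mapped totals were not given in the sources used here. Depth is therefore unknown, no counting interval was computed, and fold changes, taken on log2(FPKM + 1), understate those of low genes. FPKM is relative to all mapped fragments, so a change in abundant transcripts shifts all other values.

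Symbols came from GENCODE release 44 on GRCh38, which matched 60401 of 60612 genes. The 12076 genes that averaged 1 FPKM or more over the libraries were fitted with limma 3.58.1 (lmFit, eBayes with trend, R 4.3.3). Two-sided p-values were adjusted over all of them (Benjamini-Hochberg, threshold 0.05). The labels do not say that replicates are separate cultures, so p-values measure the spread between these libraries, which may be technical. The study screened genes by a p below 0.05 and a fold change above 1.5, which was applied here to the unadjusted p and the fitted log2 fold change. Named with the value in every library were EIF5, the most abundant member of each role and every member with an adjusted p below 0.05. Such values for EIF2S3, EIF3J, EIF4E, EEF1G and EEF1B2 were added outside this rule, with the data known. The members and lists were chosen with earlier results of these data known.

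Alternatives were a fit without trend, quantile normalization, nuclear and TPM scaling, other filters, a pseudocount of 0.1, a fold change above 2, a replicate block and each library left out. Sums of overlapping genes and of pseudogene copies were added after seeing the data. The fit was run on simulated data with known changes, as a check of the code and not of the calls reported here.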

Additional observations from a re-analysis of the deposited data

How the results depend on the processing

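With 3 libraries a group, calls near the threshold moved with single libraries. Leaving out 1 library at a time gave between 1 and 5 higher and between 1 and 3 lower members (4 and 2 in the report), between 1 and 3 at 1.5-fold and between 1 and 3 other translation genes. Over all genes, 1.58% to 4.07% were then higher and 0.729% to 1.13% lower, against 6.81% and 2.1% with all libraries. EIF5 ranged from 0.25 to 0.71 in those fits, passing only without LV-NC replicate 1. Rescaling to TPM, which moved the median of all genes to 0.2281, gave 10 higher members (15.9%, against 10.7% of all genes in that fit), 5 at 1.5-fold and a member median of 0.2059. The median was -0.0295 after quantile normalization. That normalization gave 451 higher and 375 lower genes in all, against 822 and 254. Without a filter, where 32761 genes share the adjustment, 1 lower member and 2 other translation genes passed. At a fold change above 2 the count was 0.

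EIF4B and EIF2A kept their calls in all 16 alternatives, EIF2S1 in 15, EIF2S2 in 14, EEF1A1 in 11 and EIF1 in 9. Directions reversed only for uncalled genes. After rescaling to TPM the log2 fold changes were 0.0289 for EEF2, 0.10 for EIF4A1, 0.0306 for EIF4EBP1 and 0.06 for EIF4G2, and EEF2 had 0.0495 after quantile normalization. EIF4A1 ran from -0.13 without LV-NC replicate 1 to 0.0302 without LV-SNORA28 replicate 1, with 0.0121 without LV-NC replicate 2, and was 0.0275 with the overlapping gene summed. EIF3I was -0.0183 without LV-NC replicate 1. The causes were not tested.

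No pairing by replicate number was seen, as deviations from the group means correlated by -0.04, 0.09 and 0.01 for replicates 1, 2 and 3. The labels do not say whether cultures were paired, and these correlations cannot settle it. A fit with a replicate block gave 3 higher and 2 lower members, and 378 higher and 132 lower genes in all. EIF1 had an adjusted p of 0.0603, EEF1A1 0.0477 and EIF5 a log2 fold change of 0.43.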
